A study of Mus musculus with 18 samples.

Results

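Described here are 10 genes of fibroblast growth factor (FGF) signalling through the kinase ERK: the ligand Fgf4, the receptors Fgfr1 and Fgfr2, the feedback inhibitors Spry2, Spry4, Spred1 and Dusp6, the transcription factors Etv4 and Etv5, and the cyclin gene Ccnd1. They were taken by name from the 19630 genes of the deposited table after the transcripts of each gene were summed, and all 10 were among the 15389 genes with enough counts to be tested. The mRNA libraries came from mouse cells and numbered 18, in 6 groups of 3. Embryonic stem (ES) cells grow on feeders, a layer of embryonic fibroblasts, and feeders alone formed 2 groups, control and p53-defective as the labels call them. A co-culture of ES cells with either feeder gave another pair of groups. The last 2 groups were ES cells that had been on control feeders and were freed of them, here called ES cells after feeder removal, and ES cells kept with ATN161 instead of feeders. ATN161 is a small peptide inhibitor of integrin α5β1, a receptor for fibronectin. The labels give no p53 allele, ES cell line, strain, passage, medium or dose, and they do not say whether the removed feeders were taken away at harvest or were absent during a period of culture.

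FGF4 is secreted by ES cells and acts on receptor tyrosine kinases, chiefly FGFR1, with heparan sulfate as co-receptor. The receptor starts a cascade through RAS, RAF and MEK to ERK, which prepares mouse ES cells to leave the naive pluripotent state. ERK in turn raises the transcription of its own inhibitors and of ETS family transcription factors, so the mRNA of such genes is widely read as a trace of pathway activity. The same genes respond to other growth factors in fibroblasts, so a mixed culture holds the trace of more than one cell type.

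Library totals were 15.12 to 19.83 M counts, and levels are given as counts per M (CPM) after TMM scaling, a correction for library composition. The ES cell markers were all at 1 transcript per M (TPM) or more, 12 of 12, in ES cells on control feeders, after feeder removal and with ATN161, whereas 1 of 12 in control feeders and 2 of 12 in p53-defective feeders reached that level. The 12 fibroblast markers summed to 13100 to 15900 TPM in control feeders but to 1650 to 2440 TPM in p53-defective feeders, and 6 mesothelial markers summed to 41.1 to 47.4 TPM and to 1120 to 1690 TPM in the same order. Both feeder groups carry the label of embryonic fibroblasts, so the feeder groups differed in markers of cell type as well as in the p53 label. Trp53, the gene of p53, stood at 123, 124 and 112 CPM in control feeders and at 326, 317 and 244 CPM in p53-defective feeders, so the label was not matched by a lower Trp53 mRNA. The median of 431 genes specific to ES cells was 80.5% ± 0.25 (SD, n = 3) of its level after feeder removal in ES cells on control feeders, and 9.58% ± 0.54 in ES cells on p53-defective feeders. In such bulk samples fewer cells of a type and less RNA per cell cannot be told apart.

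Of the 10 genes, 6 had an entry in the RefSeq promoter table of GRCm38.p6 (Fgf4, Fgfr2, Spry2, Spred1, Dusp6 and Etv5). The 250 bases before the start are shown for the ligand and for the pair of inhibitors whose mRNA went in opposite directions in the feeders, with capitals marking CGGAA, the core of many ETS binding sites, on either strand (TTCCG when read on the printed strand).
Dusp6 promoter, chr10:99262981-99263230, plus strand: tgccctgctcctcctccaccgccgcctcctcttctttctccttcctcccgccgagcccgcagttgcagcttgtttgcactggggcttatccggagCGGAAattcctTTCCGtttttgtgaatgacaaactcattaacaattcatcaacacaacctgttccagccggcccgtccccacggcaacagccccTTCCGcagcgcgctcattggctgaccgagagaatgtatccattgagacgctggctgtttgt
Spry2 promoter, chr14:105896820-105897069, minus strand: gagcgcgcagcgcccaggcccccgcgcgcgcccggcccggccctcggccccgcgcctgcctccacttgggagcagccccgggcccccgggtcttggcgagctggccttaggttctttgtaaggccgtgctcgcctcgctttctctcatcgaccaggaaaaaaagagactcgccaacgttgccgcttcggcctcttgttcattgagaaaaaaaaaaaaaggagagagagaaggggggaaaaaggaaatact
Fgf4 promoter, chr7:144861136-144861385, plus strand: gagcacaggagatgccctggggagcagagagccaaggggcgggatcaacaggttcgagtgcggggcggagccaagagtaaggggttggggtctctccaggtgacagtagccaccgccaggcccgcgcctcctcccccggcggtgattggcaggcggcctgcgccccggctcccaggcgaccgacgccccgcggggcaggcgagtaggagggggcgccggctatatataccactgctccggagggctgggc
The Dusp6 sequence holds 3 matches, which begin 155, 144 and 61 bases before the start, while the Spry2 and Fgf4 sequences hold 0. Of the other members in the table, Spred1 holds 1 match, 17 bases before the start, and Fgfr2 and both Etv5 starts hold 0. The Fgf4, Spry2 and Dusp6 windows were matched to the start of a counted transcript. No such match was found for the Spred1, Fgfr2 and Etv5 windows. Among all 32851 promoters of that table, 25.2% hold at least 1 match and 2.12% hold 3 or more. A match describes the letters of the window and is not a measured site.

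The split of Fgfr1 over its transcripts turns on 1 coding exon, which encodes the first immunoglobulin-like domain of the extracellular part of the receptor. It is the only stretch that the shortest of the 3 Fgfr1 transcripts lacks relative to the transcript of 822 residues, and its 267 bases read on GRCm38, chr8:25555508-25555774, plus strand, as follows.
Fgfr1 exon: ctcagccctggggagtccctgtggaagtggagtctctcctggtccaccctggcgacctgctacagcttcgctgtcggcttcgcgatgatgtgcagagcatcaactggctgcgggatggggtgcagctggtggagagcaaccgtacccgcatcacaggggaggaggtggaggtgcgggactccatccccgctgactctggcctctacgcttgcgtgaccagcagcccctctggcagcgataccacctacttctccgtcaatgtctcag

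Compared per length, in TPM, Etv5 was the most abundant of the 10 genes in ES cells on control feeders, at a mean of 143 TPM, and Fgfr2 the least, at 3.27 TPM. The order between them was Ccnd1 (102 TPM), Spry2 (91.0 TPM), Fgf4 (73.8 TPM), Fgfr1 (61.3 TPM), Etv4 (46.2 TPM), Dusp6 (41.3 TPM), Spry4 (22.1 TPM) and Spred1 (19.5 TPM). Only the ranges of Spry4 and Spred1 overlapped among neighbours in that order. Etv5 also led after feeder removal, at 177 TPM, and with ATN161, at 120 TPM, where its range overlapped that of Fgf4 (119 TPM). In the feeders the leading gene was Fgfr1, at 146 TPM in control and 77.3 TPM in p53-defective feeders, with a range that overlapped that of Ccnd1 in both. ES cells on p53-defective feeders were led by Ccnd1 (75.0 TPM) and Fgfr1 (48.5 TPM), and the other 8 genes lay at 10.8 TPM or less. The deposited FPKM gave the same order in every group.

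**Figure D1:**
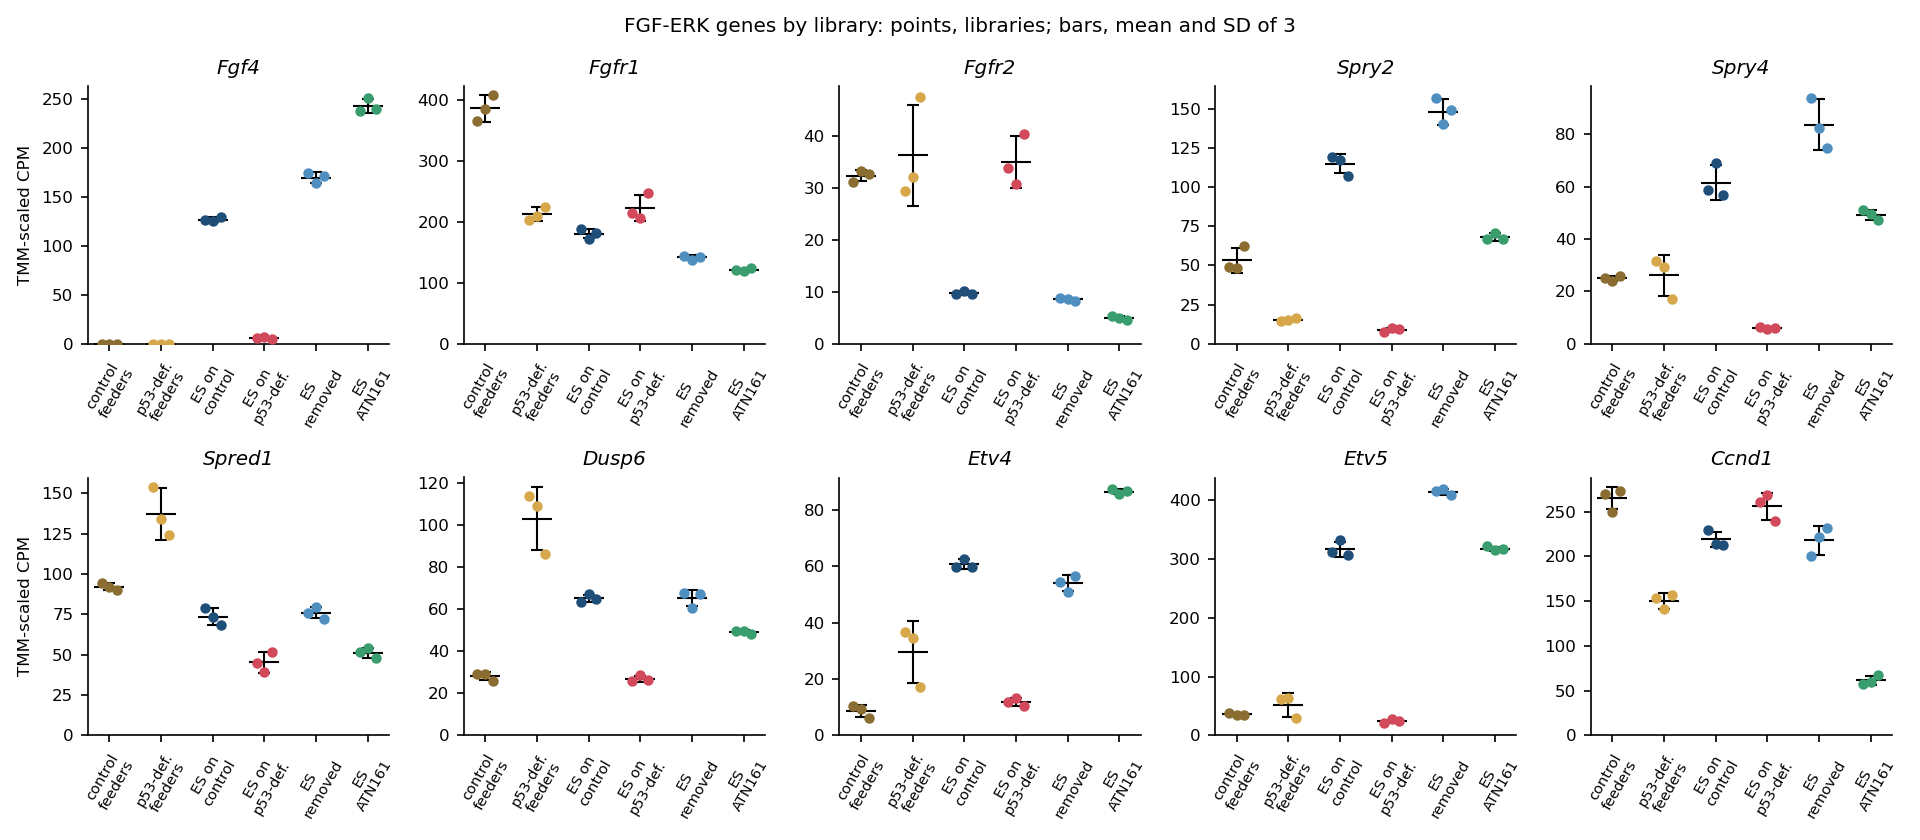
TMM-scaled CPM (linear axis from 0) of each of the 10 genes in the 18 libraries; points are libraries, and horizontal bars with whiskers are the mean and SD of 3. ES cells on p53-defective feeders have the lowest mean of the 6 groups for Spry2, Spry4, Spred1, Dusp6 and Etv5, and Fgf4 is at 0 in all 6 feeder libraries.

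Fgf4, at chr7:144861386-144865245, had 0 counts in all 6 feeder libraries. It stood at 127, 126 and 130 CPM in ES cells on control feeders, at 175, 164 and 172 CPM after feeder removal and at 238, 251 and 240 CPM with ATN161. On p53-defective feeders it stood at 5.82, 7.05 and 5.05 CPM. These 4 groups did not overlap, with ATN161 highest and the p53-defective co-culture lowest. The level after feeder removal was at least 2960-fold that of control feeders, taking a floor of 3 counts over the group.
Against ES cells on control feeders, Fgf4 was 21.3-fold lower on p53-defective feeders (log2 fold change -4.42 ± 0.10 SE; edgeR quasi-likelihood test, adjusted p = 6.6e-18). It reached 3.51% of its level after feeder removal there. Scaled on those ES-specific genes, Fgf4 was still lower, by -1.03 ± 0.11 on the log2 scale (edgeR, adjusted p = 4.01e-09). In p53-defective feeders alone those genes stood at 2.79% of their level after feeder removal, whereas Fgf4 had 0 counts. Feeder RNA in the co-culture can therefore place Fgf4 lower on this scale, and its part in that fall was not tested. With ATN161 Fgf4 was higher by 0.93 ± 0.07 than on control feeders (adjusted p = 4.44e-09) and by 0.51 ± 0.07 than after feeder removal (adjusted p = 1.31e-05), both by edgeR. Scaled on ES-specific genes these were 0.47 and 0.37, both called, whereas the rise of 0.42 ± 0.07 after feeder removal (edgeR, adjusted p = 0.000125) became 0.10 and was not called (edgeR, adjusted p = 0.334).

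Ccnd1 lies in the same stretch of chromosome 7 as Fgf4, at chr7:144929931-144939831, with a gap of 64.7 kb between them that holds Fgf15, 31.3 kb from Fgf4. On the other side Fgf3 lies 18 kb from Fgf4. Fgf15 had means under 1 CPM in ES cells on control feeders, on p53-defective feeders and with ATN161 (0.646, 0.548 and 0.885 CPM), where Fgf4 differed widely. Fgf3, at 0.549, 0.103 and 0.734 CPM, was lower on p53-defective than on control feeders (-2.36 ± 0.63; edgeR, adjusted p = 0.00196). Its levels were near the floor, as 1 count was up to 0.0661 CPM before scaling. The ES-specific genes were also at 9.58% of their level after feeder removal on p53-defective feeders. Fgf15 and Fgf3 were named for their position, with their values known.

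Of the receptors, Fgfr1, at chr8:25518759-25575718, was highest in control feeders, with 366, 386 and 409 CPM. It stood at 204, 210 and 225 CPM in p53-defective feeders, a fall of -0.86 ± 0.07 on the log2 scale (edgeR, adjusted p = 2.44e-10). Among ES cell groups it stood at 188, 173 and 182 CPM on control feeders, 145, 137 and 143 CPM after feeder removal and 122, 119 and 124 CPM with ATN161, without overlap. The removal of feeders went with a fall of -0.35 ± 0.07 (edgeR, adjusted p = 0.000315) and ATN161 with a fall of -0.57 ± 0.07 (edgeR, adjusted p = 5.57e-07) against ES cells on control feeders. The fibroblast markers followed the same order, with sums of 2180 to 2340 TPM on control feeders, 1420 to 1630 TPM after feeder removal and 275 to 290 TPM with ATN161, and 11 or 12 of the 12 at 1 TPM or more in each. The part of feeder RNA in these Fgfr1 differences was not tested.
ES cells on p53-defective feeders held 215, 207 and 248 CPM of Fgfr1, higher than on control feeders by 0.30 ± 0.07 (edgeR, adjusted p = 0.000483), but the deposited TPM of the same libraries were lower, with means of 48.5 against 61.3. The direction of Fgfr1 in that comparison therefore depends on the scale.

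The share of Fgfr1 counts given to the transcript without the exon shown above differed between groups. It was 46.2, 50.6 and 49.4% in control feeders and 21.2, 25.3 and 33.9% in p53-defective feeders, which did not overlap. In ES cells it was 17.3, 19.6 and 25.2% on control feeders, 27.4, 15.2 and 22.2% after feeder removal and 6.11, 10.6 and 7.08% with ATN161, so the ATN161 libraries lay under all others. On p53-defective feeders it was 29.9, 34.2 and 32.2%. The 2 transcripts with the exon, of 820 and 822 residues, differ by a shift of the boundary of another exon and took similar shares in most groups, for example 44.2% ± 3.1 and 47.9% ± 4.7 with ATN161. These shares were estimated by the authors' software from reads that mostly fit all 3 transcripts, and they were not tested.

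**Figure D2:**
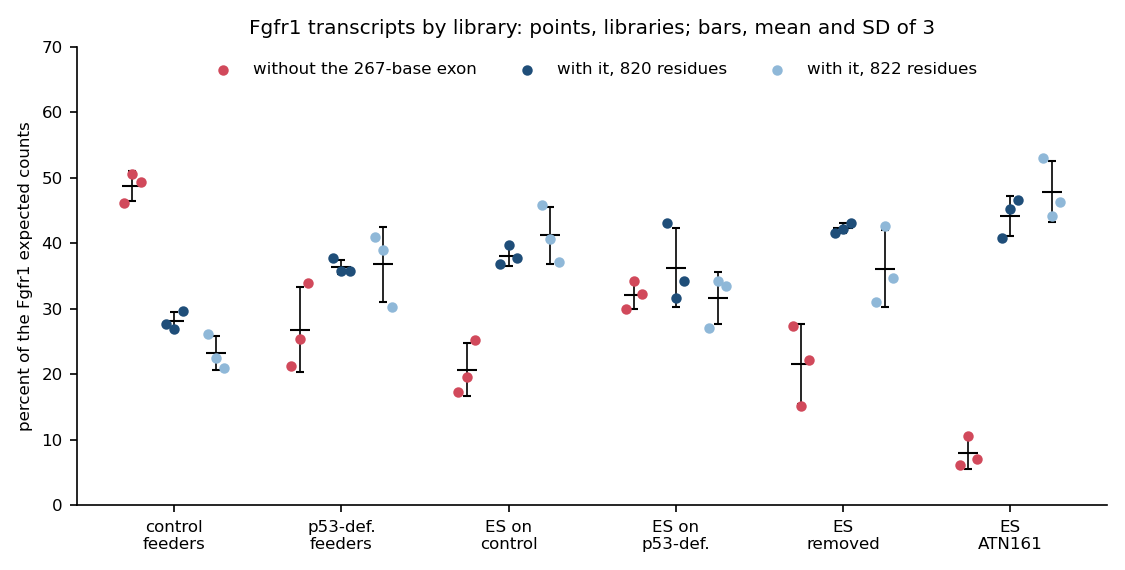
Percent of the Fgfr1 expected counts (linear axis) assigned to each of its 3 transcripts in each library; points are libraries, bars and whiskers the mean and SD of 3. The transcript without the 267-base exon has 48.7% of the counts in control feeders and 7.93% in ES cells with ATN161.

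Fgfr2, at chr7:130162451-130266808, is the receptor of trophectoderm and primitive endoderm rather than of naive ES cells, and it was low in ES cells. It stood at 9.58, 10.2 and 9.58 CPM on control feeders, 8.89, 8.60 and 8.23 CPM after feeder removal and 5.36, 4.97 and 4.52 CPM with ATN161. Feeders held 31.1, 33.2 and 32.8 CPM (control) and 29.4, 32.2 and 47.5 CPM (p53-defective), which overlapped and did not pass the test (log2 fold change 0.17 ± 0.13; edgeR, adjusted p = 0.242). Without replicate 3 of the p53-defective feeders, the library with 47.5 CPM, that value was -0.07, and without replicate 1 or 2 it was 0.37 or 0.32, with adjusted p of 0.013 and 0.048 by edgeR. ES cells on p53-defective feeders held 33.9, 30.7 and 40.5 CPM, a level that overlapped their feeders and was 3.58-fold above ES cells on control feeders (edgeR, adjusted p = 3.09e-11). ATN161 went with a fall of -0.98 ± 0.17 against ES cells on control feeders (edgeR, adjusted p = 2.48e-05).
Of the Fgfr2 counts, 44.0 to 97.7% in each library were given to the transcript with the 145-base exon at chr7:130198419-130198563, which marks the IIIc form of the receptor. The transcript with the 148-base exon at chr7:130199758-130199905, of the IIIb form, had 0 to 34.2 counts per library. The remaining Fgfr2 transcript had no counterpart in the annotation used for exons, so its form is not stated.

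The feedback inhibitors did not move together in p53-defective feeders: Spry2 was lower, Dusp6 and Spred1 were higher, and Spry4 was not called. Spry2 (chr14:105891947-105896819) encodes a Sprouty protein, which blocks the path from receptor to RAS and RAF. It stood at 49.2, 48.2 and 62.3 CPM in control feeders and at 14.7, 15 and 16.6 CPM in p53-defective feeders, a 3.45-fold fall (log2 fold change -1.79 ± 0.10; edgeR, adjusted p = 3.81e-13). Dusp6 (chr10:99263231-99267489), a phosphatase that removes the activating phosphates from ERK, stood at 29.4, 29.1 and 25.8 CPM and at 114, 109 and 86.4 CPM in the same feeders, a 3.67-fold rise (1.88 ± 0.09; edgeR, adjusted p = 1.63e-14). The groups were apart for both genes, in opposite directions.
Spred1 (chr2:117121071-117182279), a Sprouty-related inhibitor that keeps RAF inactive, rose with Dusp6, from 94.2, 92.2 and 89.8 CPM to 154, 134 and 124 CPM (0.58 ± 0.09; edgeR, adjusted p = 4.91e-06). Spry4, a second Sprouty gene on chromosome 18, stood at 25.0, 23.9 and 26.0 CPM in control feeders and 31.7, 29.5 and 17.0 CPM in p53-defective feeders, and did not pass the test (0.06 ± 0.15; edgeR, adjusted p = 0.722). Replicate 3 of the p53-defective feeders was the low library, and without it Spry4 was higher by 0.29 (edgeR, adjusted p = 0.0119), whereas without replicate 1 it was -0.03.

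In ES cells the inhibitors were present at levels above those of control feeders, except Spred1. Spry2 stood at 119, 117 and 107 CPM on control feeders, 157, 140 and 149 CPM after feeder removal and 66.7, 70.9 and 67.2 CPM with ATN161. Spry4 stood at 58.6, 69.1 and 56.9 CPM, 94.0, 82.4 and 74.6 CPM, and 51.0, 49.4 and 47.2 CPM in the same 3 groups. Both Sprouty genes thus lay in 1 order, highest after feeder removal and lowest with ATN161, without overlap.
Dusp6 stood at 63.3, 67.0 and 65.0 CPM on control feeders and 67.6, 60.7 and 67.4 CPM after feeder removal, which overlapped, and at 49.5, 49.8 and 48.1 CPM with ATN161. Spred1 stood at 78.6, 73.2 and 68.3 CPM, 76.0, 79.6 and 72.3 CPM, and 51.7, 54.0 and 48.0 CPM. For both, ES cells on control feeders and after removal of feeders overlapped and the ATN161 libraries were lower than all of them.
On p53-defective feeders all 4 inhibitors were low: Spry2 at 7.40, 9.86 and 9.21 CPM, Spry4 at 6.37, 5.74 and 6.24 CPM, Spred1 at 44.8, 39.2 and 51.9 CPM, and Dusp6 at 25.7, 28.5 and 26.5 CPM.

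Etv4 (chr11:101769747-101785310) and Etv5 (chr16:22381313-22439570) encode closely related ETS transcription factors whose transcription FGF signalling raises. Etv5 stood at 312, 332 and 307 CPM in ES cells on control feeders, 416, 419 and 409 CPM after feeder removal and 322, 316 and 317 CPM with ATN161. Control feeders held 38.7, 35.0 and 34.3 CPM and p53-defective feeders 61.9, 63.9 and 28.8 CPM of Etv5. The co-culture on p53-defective feeders held 21.8, 27.0 and 24.1 CPM, below every feeder library of its kind and every library after feeder removal.
Etv5 after feeder removal lay above ES cells on control feeders in all 3 libraries, but the difference of 0.39 ± 0.17 did not pass the test in the fit of all groups (edgeR, adjusted p = 0.0662). In a fit of only those 2 groups it did (edgeR, adjusted p = 6.16e-07). In feeders, the difference of 0.52 ± 0.19 passed (edgeR, adjusted p = 0.0185) although the groups overlapped through replicate 3 of the p53-defective feeders. That call was lost without replicate 3 of the control feeders (adjusted p = 0.0583), without replicate 2 of the p53-defective feeders (adjusted p = 0.0599) and in a fit of only the feeders (adjusted p = 0.0907), all by edgeR.
Etv4 stood at 59.7, 62.6 and 59.6 CPM in ES cells on control feeders, 54.5, 51.0 and 56.4 CPM after feeder removal and 87.3, 85.4 and 86.5 CPM with ATN161. It rose in feeders from 10.5, 9.19 and 6.25 CPM (control) to 36.7, 34.5 and 17.2 CPM (p53-defective; 1.77 ± 0.21; edgeR, adjusted p = 5.37e-07), with replicate 3 again the low library. On p53-defective feeders the co-culture held 11.8, 13.2 and 10.4 CPM. Etv4 and Etv5 differed in the ATN161 libraries, where Etv4 was at its highest of the 6 groups and Etv5 was not.

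Ccnd1 encodes cyclin D1, which drives entry into S phase and whose transcription ERK sustains in many cells. It stood at 229, 214 and 213 CPM in ES cells on control feeders and at 200, 221 and 232 CPM after feeder removal, which overlapped. With ATN161 it fell to 57.9, 59.6 and 66.9 CPM, 3.56-fold below ES cells on control feeders (log2 fold change -1.83 ± 0.08; edgeR, adjusted p = 1.38e-14). The ATN161 libraries were the lowest of all 18. Feeders held 270, 250 and 273 CPM (control) and 153, 141 and 157 CPM (p53-defective), a fall of -0.82 ± 0.08 (edgeR, adjusted p = 1.43e-09). On p53-defective feeders the co-culture held 261, 269 and 239 CPM, above both its feeders and ES cells after feeder removal in CPM, whereas the mean TPM of 75.0 lay beside that of the feeders (74.4) and below that after feeder removal (96.5).

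In feeders, genes of the pathway differed in both directions with the p53 label. Of the 10 genes, 4 were higher (Dusp6, Etv4, Spred1 and Etv5) and 3 lower (Spry2, Fgfr1 and Ccnd1) in p53-defective than in control feeders, beside 74.3% of all genes tested that were called. Groups did not overlap for 6 of the 10 genes and for 74.0% of all genes. The share called among the 10 was therefore close to the background.
Among 82 other pathway genes tested, from lists of ligands, receptors, heparan sulfate enzymes, adaptors, kinases, inhibitors, ERK-responsive genes and cyclin partners, 34 were higher and 34 lower. The RAF, MEK and ERK kinase list had 8 of 11 higher and the other 3 not called, led by Rps6ka2, a kinase that ERK activates (1.78 ± 0.12), and by Map2k1 (0.99 ± 0.07), which encodes a MEK. The heparan sulfate enzymes had 8 of 11 lower and 3 higher, and the other receptors and co-receptors 7 of 12 lower and 3 higher, with Sdc3, a syndecan core protein, 40.1-fold lower. The medians of these 3 lists were 0.35, -0.74 and -1.12 on the log2 scale, beside -0.01 over all genes tested.
Of 11 other FGF ligands tested in feeders, 4 were higher, 4 lower and 3 not called. Fgf2 fell from 58.2, 53.5 and 45.5 CPM to 2.48, 2.66 and 5.15 CPM, and Fgf7, a growth factor that mesenchyme sends to epithelia, from 25.7, 24.3 and 22.7 CPM to 1.46, 1.27 and 2.21 CPM. Fgf5 rose from 0.566, 0.809 and 0.927 CPM to 13.1, 15 and 24.5 CPM. All 3 changes passed the test (edgeR, adjusted p of 1.24e-14, 1e-16 and 1.78e-12). Fgf21 was present in both feeders, at means of 46.0 and 97.7 CPM (1.09 ± 0.10; edgeR, adjusted p = 2.6e-09), and Fgf10 stood at 8.27 and 7.88 CPM, not called; both were named after their values were seen.

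In TMM-scaled CPM, ES cells on p53-defective feeders carried less mRNA of the ligand, of all 4 inhibitors and of both ETS factors than ES cells on control feeders, whereas on a scale set by ES-specific genes only Fgf4 and Spry2 stayed lower. Of the 10 genes 7 were lower and 3 higher, beside 83.4% of all genes tested that were called and 46.7% that were called and lower. Spry2 and Etv5 were each 13.0-fold lower, Etv4 5.15-fold, Dusp6 2.42-fold and Spred1 1.62-fold, and Spry4 by -3.33 ± 0.17 on the log2 scale. Fgfr2, Fgfr1 and Ccnd1 were higher by 1.84 ± 0.14, 0.30 ± 0.07 and 0.23 ± 0.07 on the log2 scale. In the deposited TPM Ccnd1, like Fgfr1, was instead lower, with means of 75.0 against 102, so its direction depends on the scale too. The ES cell markers summed to 512 to 686 TPM in this co-culture, with 11 of 12 at 1 TPM or more and none at 0, and to 6420 to 6690 TPM on control feeders.
With the libraries scaled on ES-specific genes, a scale on which the median of all genes moved from -0.18 to 3.20, Spry2 was at -0.32 ± 0.10 (edgeR, adjusted p = 0.00602). Etv5 was at -0.32 (adjusted p = 0.097) and Spry4 at 0.06 (adjusted p = 0.743), neither called by edgeR, and Spred1, Dusp6 and Etv4 turned to 2.70, 2.11 and 1.02 and were called higher. So the split of 3 higher and 7 lower became 6 higher and 2 lower. Spry2, Etv5 and Spry4 stood at 5.95, 5.87 and 7.31% of their level after feeder removal, and p53-defective feeders express all 3. Etv4, Dusp6 and Spred1 stood at 21.8, 41.2 and 59.6%.

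The co-culture on p53-defective feeders was set beside its feeders alone and ES cells after feeder removal, in TMM-scaled CPM. For 6 of the 10 genes (Spry2, Spry4, Spred1, Dusp6, Etv4 and Etv5) all 3 libraries lay below every library of p53-defective feeders alone and every library of ES cells after feeder removal, beside 20.2% of all genes tested. Ccnd1 lay above both in CPM, beside 24.0% of all genes. In the mean TPM the 6 genes were also lowest in the co-culture, where for example Dusp6 stood at 10.8, beside 69.6 in its feeders and 39.4 after feeder removal. Relative to CPM, however, TPM was lower in this co-culture than in both parts for these genes. Fgfr1, for example, at 223 CPM in this co-culture and 213 CPM in its feeders, stood at 48.5 and 77.3 TPM. Genes below both parts in CPM therefore had to stay below in TPM, and the TPM order is no separate check. No share over all genes was taken in TPM. In ES cells on control feeders, 0 of the 10 genes lay below both parts and 1, Etv4, lay above, beside 10.3% and 11.6% of all genes. ES cells on p53-defective feeders with the feeders removed were not analysed here, so the ES cells after feeder removal come from the other feeder.
Against p53-defective feeders alone, 6 of the 10 genes were lower and 2 higher (79.7% of all genes called): Spry4 by -2.09 ± 0.18, Dusp6 by -1.94 ± 0.09, Spred1 by -1.60 ± 0.09, Etv4 by -1.33 ± 0.21, Etv5 by -1.08 ± 0.19 and Spry2 by -0.80 ± 0.12. Against ES cells after feeder removal, 7 were lower and 3 higher (85.9% of all genes called), with Etv5 at -4.09 ± 0.20, Spry2 at -4.07 ± 0.11, Spry4 at -3.77 ± 0.17, Etv4 at -2.20 ± 0.20, Dusp6 at -1.28 ± 0.09 and Spred1 at -0.75 ± 0.09. All 6 passed in both (edgeR), and 21.1% of all genes were called lower in both. On the scale of ES-specific genes the comparison with feeder removal turned for 3 of the 6, with Spred1 at 2.97, Dusp6 at 2.43 and Etv4 at 1.5, all called higher, and Spry4 was not called (-0.07; edgeR, adjusted p = 0.715). The comparisons share the co-culture libraries and were added after the levels had been seen. Among the 82 other pathway genes, 14 lay below both parts and 14 above, beside the same 20.2% and 24.0% of all genes. Those below included the immediate early genes Fos, at 5.20 CPM in the co-culture and 9.89 CPM in its feeders, and Egr1, at 44.9 and 96.5 CPM, as well as Dusp5 and Epha2. Those above included the ERK-responsive gene Ier3, at 209 CPM in the co-culture, and the kinase genes Mapk3, Map2k1 and Map2k2. The genes above were named after their values were seen.

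**Figure D3:**
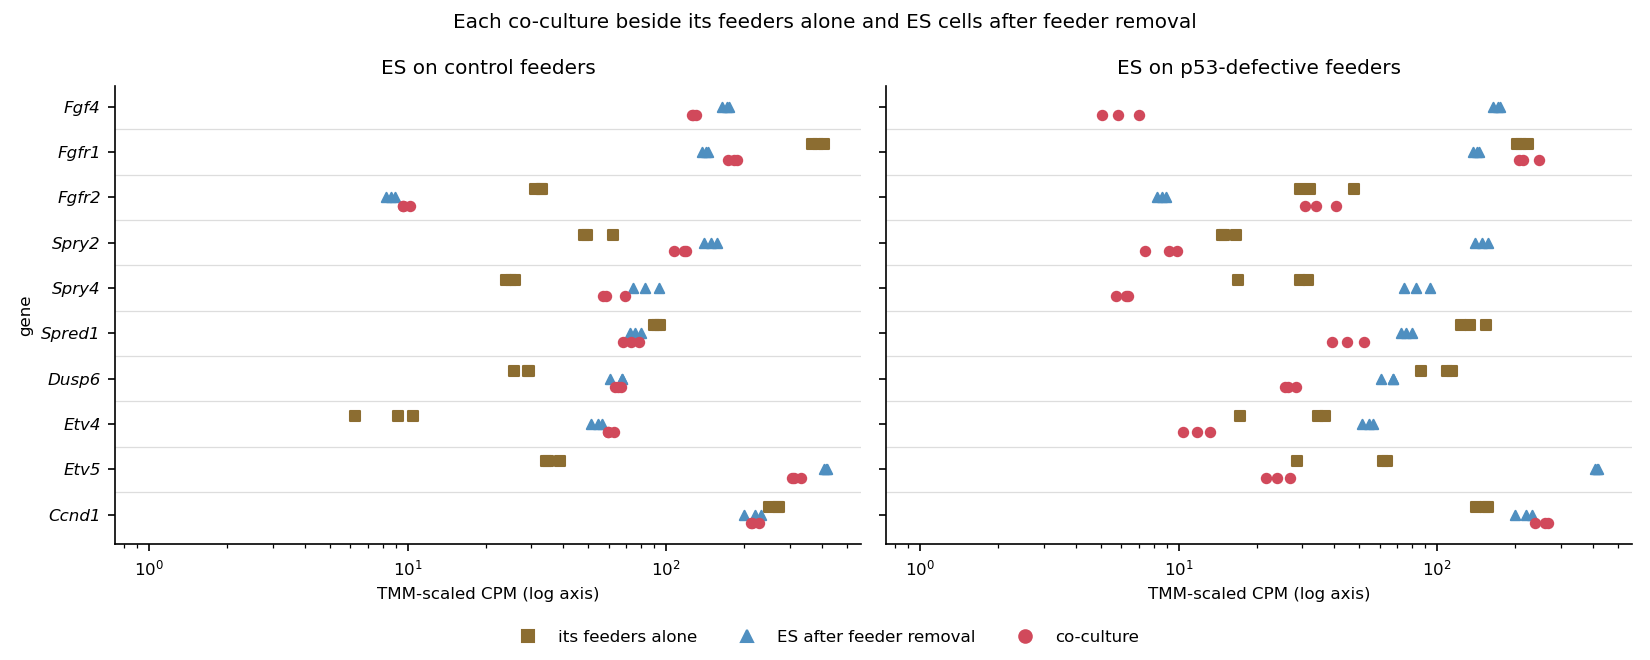
TMM-scaled CPM (log axis) of each gene in the libraries of a co-culture (circles), of its feeders alone (squares) and of ES cells after feeder removal (triangles), for control feeders on the left and p53-defective feeders on the right; Fgf4 is at 0 in feeders and has no square. On the right the circles lie left of both other groups for 6 genes, and on the left for 0.

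In the other pathway lists, ES cells on p53-defective feeders had 31 of 82 genes higher and 39 lower than ES cells on control feeders, a share close to the 83.4% of all genes that were called. The ERK-responsive list had 7 of 11 lower and 2 higher, with a median of -1.09 beside -0.18 over all genes tested. Fos fell from 732, 737 and 723 CPM to 4.49, 5.30 and 5.82 CPM (140-fold), Egr1 24.5-fold and Etv1, of the same family as Etv4 and Etv5, 22.9-fold. The 2 that rose were Myc (2.79 ± 0.13) and Ier3 (2.12 ± 0.11), named after their values were seen. Among the other inhibitors 6 of 9 were lower, led by Dusp5 (-2.20 ± 0.15) and Dusp9 (-1.85 ± 0.08), an X-linked ERK phosphatase of ES cells, and 2 were higher, Spry3 (3.78 ± 0.18) and Dusp4 (1.18 ± 0.14, named after its value was seen). These list values are on the TMM scale, and ES-specific genes stood at 9.58% of their level after feeder removal in this co-culture. Dusp9 held 27.7 CPM there, beside 0.673 CPM in p53-defective feeders and 67.8 CPM after feeder removal. The part of cell content in these falls was not tested. Fgf5, a gene that ES cells switch on as they leave the naive state and that these feeders also express, stood at 47.7, 41.3 and 50.9 CPM, above both its feeders and ES cells on control feeders (0.688, 0.286 and 0.195 CPM).

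The feeder effect of the p53 label and its effect in co-culture differed for all 9 genes with counts in feeders, beside 73.6% of all genes tested that were called for this difference. Fgf4, with 0 counts in feeders, has no such value. Dusp6, Etv4, Spred1 and Etv5 were higher in p53-defective feeders alone and lower in the co-culture, with differences of effect of -3.15 ± 0.13, -4.13 ± 0.29, -1.27 ± 0.13 and -4.22 ± 0.27 on the log2 scale (edgeR, adjusted p of 1.21e-15, 3.16e-10, 8.04e-09 and 9.4e-11). Ccnd1 and Fgfr1 went the other way, lower in the feeders and, in CPM but not in TPM, higher in the co-culture, with differences of effect of 1.04 ± 0.11 and 1.17 ± 0.10. Scaled on ES-specific genes, Spred1 turned to 1.95 and Spry2 to 1.29, Dusp6 (0.06; edgeR, adjusted p = 0.681) and Spry4 (-0.18; edgeR, adjusted p = 0.468) were not called, and Etv4 and Etv5 kept their sign. The ES-specific genes stood at 2.95% of their level after feeder removal in control feeders and at 2.79% in p53-defective feeders. That scale therefore has little meaning for a difference that takes in feeders alone.

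**Figure D4:**
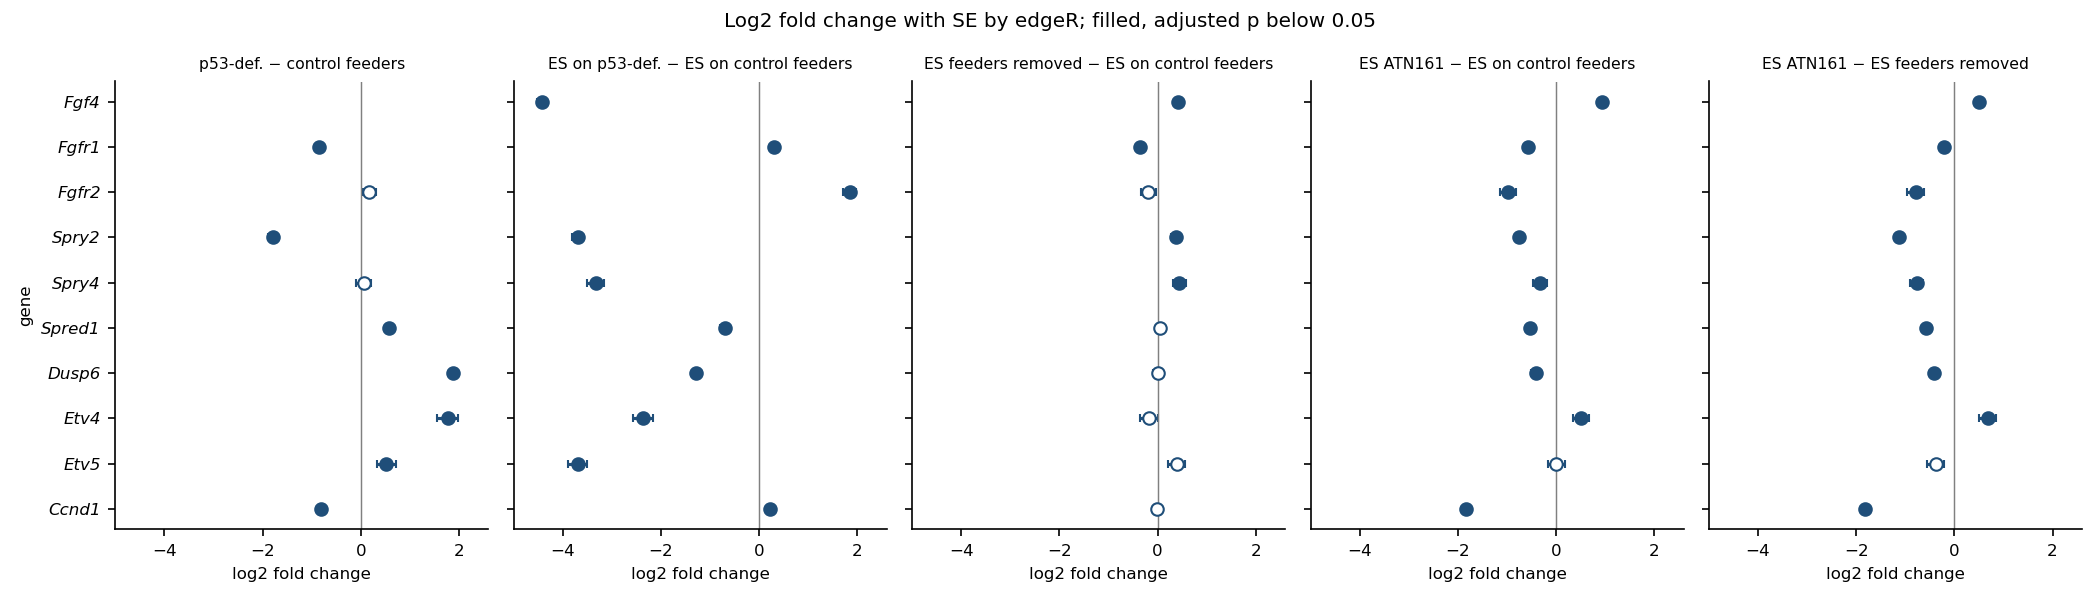
Log2 fold change of each gene with its SE in 5 comparisons (edgeR quasi-likelihood test), each named above its panel; filled circles have an adjusted p below 0.05, and Fgf4 has no value in feeders. On this TMM scale the largest changes are the falls on p53-defective feeders, down to -4.42 for Fgf4, and with ATN161 Ccnd1 lies at -1.83 against both other groups.

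On the TMM scale, removal of the feeders went with changes of 0.44 or less on the log2 scale, in either direction, for each of the 10 genes. Higher were Spry4 (0.44 ± 0.13; edgeR, adjusted p = 0.00854), Fgf4 (0.42 ± 0.07) and Spry2 (0.37 ± 0.09; edgeR, adjusted p = 0.00124), and Fgfr1 was lower, so that 4 of 10 were called beside 52.0% of all genes tested. Dusp6, Ccnd1 and Spred1 stood at 0.00 ± 0.09, -0.01 ± 0.07 and 0.05 ± 0.09. In a fit of only those 2 groups Etv4 was also called lower (-0.17; edgeR, adjusted p = 0.0128) and Etv5 higher (0.39; edgeR, adjusted p = 6.16e-07). ES-specific genes were themselves at 80.5% on control feeders, and scaled on them the split of 3 higher and 1 lower became 6 lower and the other 4 not called, with Spry2 at 0.06, Spry4 at 0.13 and the median of all genes at -0.32. The call of Spry4 was also lost without replicate 1 after feeder removal (adjusted p = 0.103) and without replicate 1 or 3 of ES cells on control feeders (adjusted p of 0.0666 and 0.0743), all by edgeR.
In the other lists 14 of 82 genes were higher and 30 lower, with Fos at 255 CPM against 731 CPM (-1.52 ± 0.07) and Fgf7 at 22.8 against 50.4 CPM (-1.15 ± 0.09). Against control feeders alone, ES cells after feeder removal were higher in 6 of the 10 genes and lower in 4, beside 85.9% of all genes called. Etv5 was 11.5-fold, Etv4 6.23-fold, Spry4 3.35-fold, Spry2 2.79-fold and Dusp6 2.32-fold higher. Fgfr2 was 3.77-fold and Fgfr1 2.73-fold lower, and Spred1 and Ccnd1 were each lower by -0.28 on the log2 scale. The call of Spred1 was lost without replicate 3 after feeder removal (-0.21; edgeR, adjusted p = 0.0697).

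ES cells with ATN161 combined the highest Fgf4 level with lower levels of Spry2, Spry4, Spred1, Dusp6 and Ccnd1 than ES cells on control feeders. Of the 11 other FGF ligands tested, 0 were higher, 4 lower and 7 not called in that comparison, and the inhibitor gene Dusp9 was higher (0.86 ± 0.07). Against ES cells on control feeders, 7 of the 10 genes were lower and 2 higher, beside 61.6% of all genes tested that were called and 28.0% that were called and lower. The falls were Ccnd1 (-1.83), Fgfr2 (-0.98), Spry2 (-0.75 ± 0.09), Fgfr1 (-0.57), Spred1 (-0.52 ± 0.09), Dusp6 (-0.41 ± 0.09) and Spry4 (-0.32 ± 0.14), and Etv5 stood at 0.01 ± 0.17. The call of Spry4 (edgeR, adjusted p = 0.0441) was lost without replicate 2 of the control co-culture or without any 1 of the ATN161 libraries, with adjusted p of 0.0671 to 0.119. The call of Etv4 (0.51 ± 0.17; edgeR, adjusted p = 0.016) was lost without any 1 of the control co-culture libraries (adjusted p of 0.0639 to 0.0908), with no filter on low counts (0.0719), with curated transcripts alone (0.463) and when scaled on ES-specific genes, where it was 0.05 (0.841). Of the 12 Etv4 transcripts, 9 are predicted models. On the scale of ES-specific genes Etv5 was lower by -0.46 ± 0.17 (edgeR, adjusted p = 0.0248), which makes 8 lower and 1 higher.

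Against ES cells after feeder removal, which had been cultured on control feeders, 7 genes were again lower and 2 higher. Of all genes tested, 55.4% were called and 26.8% were called and lower. Ccnd1 (-1.83 ± 0.08), Spry2 (-1.12 ± 0.09), Fgfr2 (-0.79 ± 0.17), Spry4 (-0.77 ± 0.14), Spred1 (-0.57 ± 0.09), Dusp6 (-0.41 ± 0.09) and Fgfr1 (-0.22 ± 0.07) were lower, with adjusted p of 0.013 or less by edgeR, and each was lower also on the scale of ES-specific genes. Fgf4 was higher by 0.51 and Etv4 by 0.68 ± 0.17 (edgeR, adjusted p = 0.00314), a call that Etv4 lost with curated transcripts alone (0.48; edgeR, adjusted p = 0.333). Etv5 stood at -0.38 ± 0.17 (edgeR, adjusted p = 0.067), with groups that did not overlap, and was called in a fit of only those 2 groups (edgeR, adjusted p = 1.44e-07). The median of feeder-specific genes was 9.03% of their level in feeders after feeder removal and 6.02% with ATN161, and the fibroblast markers summed to 1420 to 1630 TPM and 275 to 290 TPM. The part of feeder RNA in the falls with ATN161 was not tested. Both comparisons use the ATN161 libraries and are not independent.

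The ERK-responsive list, which holds none of the 10 genes, was lower with ATN161 in 11 of 11 genes against feeder removal, with a median of -1.09 beside 0.03 over all genes tested. Against ES cells on control feeders the list was lower in 9 of 11 and higher in 1 (Etv1, 0.24 ± 0.08, named after its value was seen). Of all genes tested, 26.8% were called and lower against feeder removal and 28.0% against ES cells on control feeders. Fos stood at 6.52, 5.42 and 5.45 CPM with ATN161 and 263, 244 and 257 CPM after feeder removal (43.8-fold). Egr1 stood at 28.5, 26.9 and 28.3 CPM against 784, 668 and 798 CPM (26.9-fold). Both are immediate early genes, whose transcription answers to growth factors within minutes.
Among the other inhibitors 5 of 9 were lower against feeder removal, led by Dusp5 (-1.57 ± 0.13) and Spred3 (-1.08 ± 0.11), while Dusp9 rose from 65.3, 65.9 and 72.1 CPM to 186, 176 and 182 CPM (1.42 ± 0.07; edgeR, adjusted p = 7.41e-13). The heparan sulfate enzymes were lower in 7 of 11 and not called in the other 4, led by Sulf1 (-1.84 ± 0.10), which removes sulfate groups from heparan sulfate, and Hs6st2 (-2.26 ± 0.14), which adds them. Feeders express these genes too, with means of 150 and 56.7 CPM in control feeders. Of the other D cyclin genes, Ccnd2 fell with Ccnd1, from 136, 154 and 152 CPM to 26.8, 30.4 and 34.6 CPM (-2.27 ± 0.09; 729 CPM in control feeders), and Ccnd3 rose by 0.41 ± 0.09 (edgeR, adjusted p of 7.02e-15 and 0.000907). The RAF, MEK and ERK kinases had 4 of 11 higher and 1 lower, with a median of 0.10, beside 55.4% of all genes called.

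Over the 6 group means, the gene most like each of the 10, by the root mean square difference of log2 CPM after centring, was Sall4 for Fgf4 (0.242), Ginm1 for Fgfr1 (0.081), Lmo4 for Fgfr2 (0.140), Prrg4 for Spry2 (0.244), Zdbf2 for Spry4 (0.188), Chd2 for Spred1 (0.090), Znrf3 for Dusp6 (0.219), Pask for Etv4 (0.170), Phc1 for Etv5 (0.219) and Tgfbr3 for Ccnd1 (0.144), out of 11441 genes searched. These distances are a description over 6 points. Within the 10 genes the closest pairs were Fgfr1 with Ccnd1 (0.559), Spred1 with Dusp6 (0.562) and Spry2 with Spry4 (0.586).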

How the data were processed

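Libraries were made from Trizol RNA with Illumina's TruSeq mRNA kit, per the labels' protocols; strand is not given in the sources used here. Builds mm10 and GRCm38 and the tools HISAT2 2.1.0, StringTie 1.3.3b, SAMtools 1.4 and also DESeq2 1.2.10 are listed without roles, per the submitters' processing notes. The deposited table holds the authors' expected counts, TPM and FPKM for 75416 RefSeq transcripts. Expected counts were summed to 19630 genes and rounded; TPM and FPKM, summed likewise, served only to compare genes with each other and as a second scale. Another 18 columns of normalised counts and 24 of group averages were not used.

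The main test was edgeR 4.0.16 quasi-likelihood (R 4.3.3; filterByExpr, TMM, robust), two-sided, over 1 fit of all 18 libraries, adjusted by Benjamini-Hochberg over 15389 genes; genes were called at an adjusted p below 0.05. The fit was tried on simulated data for the feeder comparison alone, with few genes changed and as many up as down. That setting does not cover the wide differences between the groups here. ES-specific means 8-fold or more above either feeder group, both after feeder removal and with ATN161, and 10 CPM or more; feeder-specific is the reverse. Floors cover counting error only. Nothing states that replicates came from separate cultures; p-values then reflect only library-to-library spread, which may be technical. Promoters are RefSeq's and exons GENCODE's, both on GRCm38.

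The 10 genes and all lists were chosen with earlier results of these data known. Named were the 10 genes, Trp53, up to 3 called members of each list with the smallest p in a comparison and, for each of the 10, the genes nearest in pattern. Alternatives were DESeq2 1.42.0 size factors and Wald test, limma 3.58.1 voom, other filters, a replicate block, ES-specific scaling, curated transcripts, only the groups compared, and leaving out each library.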

Additional observations from a re-analysis of the deposited data

Results flagged for a closer look

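The difference between the p53 label's effect in co-culture and its effect in feeders alone passed its test (edgeR, difference of differences, TMM scale) for all 9 of the 10 genes that have counts in feeders. It was -4.22 for Etv5, -4.13 for Etv4, -3.39 for Spry4, -3.15 for Dusp6, -1.91 for Spry2 and -1.27 for Spred1 on the log2 scale. It was 1.67 for Fgfr2, 1.17 for Fgfr1 and 1.04 for Ccnd1. Scaled on ES-specific genes it turned to 1.29 for Spry2 and 1.95 for Spred1, and was not called for Spry4 (-0.18; edgeR, adjusted p = 0.468) and Dusp6 (0.06; edgeR, adjusted p = 0.681). Feeders alone hold little of the ES-specific genes, so that scale has little meaning for this difference. In the deposited TPM, the means of Fgfr1 and Ccnd1 were lower, not higher, on p53-defective than on control feeders in co-culture. The same difference was called for 73.6% of all genes tested. The groups differed also in ES-specific genes (9.58% and 80.5% of their level after feeder removal in the p53-defective and control co-cultures) and in the mesothelial and fibroblast markers of the feeders, and the part of these in the differences was not tested.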

How the results depend on the processing

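Of 1374 recomputed values, 1282 kept their direction and side of the threshold, 24 were no longer called, 17 became called and 51 changed sign. Leaving out each library gave 6 to 8 genes called in feeders, 10 on p53-defective against control feeders, 3 to 4 after feeder removal, 7 to 8 and 9 with ATN161 (against control feeders and feeder removal), 9 to 10 after feeder removal against control feeders, 9 for the difference of effects, and 8 and 10 for the p53-defective co-culture against its parts.

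Scaling on ES-specific genes changed the most signs. On p53-defective against control feeders it gave Spred1 2.70, Dusp6 2.11, Etv4 1.02 and Spry4 0.06. Against ES cells after feeder removal that co-culture had Spred1 at 2.97, Dusp6 at 2.43 and Etv4 at 1.5, and against its feeders Ccnd1 at -1.10 and Fgfr1 at -1.79. For the difference of effects it gave Spred1 1.95, Spry2 1.29 and Dusp6 0.06. After feeder removal Dusp6 was at -0.31 and Spred1 at -0.27, and Etv5 with ATN161 was at -0.46. Against control feeders alone, where these genes are near 0 by construction, ES cells after feeder removal had Dusp6 at -4.19, Spry2 at -3.92, Spry4 at -3.65, Etv4 at -2.77 and Etv5 at -1.88, so the scale has little meaning there. The same limit holds for the difference of effects and for the p53-defective co-culture against its feeders, which also take in feeders alone.

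The other changes of sign were in genes near 0 that were not called. Dusp6 after feeder removal was at 0.00 with DESeq2 (size factors or Wald test), -0.06 with the 5 CPM filter, -0.05 with no filter and -0.03 with curated transcripts. Spred1 there was at -0.01 with the 5 CPM filter. Etv5 with ATN161 against control feeders was at -0.01 with DESeq2 (both), -0.08 with either filter choice, -0.10 with curated transcripts and -0.08 in a fit of only those groups, where it was called (edgeR, adjusted p = 0.0384). In the p53-defective co-culture against its feeders, Fgfr1 was at -0.04 in a fit of only those groups, and Fgfr2 at 0.00 with the 5 CPM filter and 0.07 with none.

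Leaving out single libraries moved Dusp6 after feeder removal between -0.08 and 0.00, Spred1 there between -0.05 and 0.05, Etv5 with ATN161 against control feeders between -0.09 and 0.01, Fgfr2 in the p53-defective co-culture against its feeders between -0.07 and 0.19, and, in feeders, Fgfr2 between -0.07 and 0.37 and Spry4 between -0.03 and 0.29.

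Deviations of same-numbered libraries from their group means correlated at -0.105 to 0.223. Differently numbered libraries were not set beside them, so whether the replicate numbers pair the libraries was not tested. With a replicate block Etv5 after feeder removal became called (0.39; edgeR, adjusted p = 0.0489), making 5 genes, and the other comparisons kept their counts, 7 in feeders and 10 on p53-defective against control feeders. ES-specific genes defined at 4-fold or 32-fold stood at 81.3 or 81.9% on control and 12.3 or 8.13% on p53-defective feeders, and feeder-specific genes at 23.5 or 3.68% and 80.0 or 14.1% (13.4% and 55.9% at 8-fold). The cause of these changes was not tested.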
